A study of Mus musculus with 16 samples.

Results

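The transforming growth factor beta (TGF-beta) axis of mouse hepatic stellate cells is described here through 10 genes. They are the ligands Tgfb1, Tgfb2 and Tgfb3, the latent TGF-beta binding protein Ltbp1, the receptors Tgfbr1, Tgfbr2 and Tgfbr3, the signal transducer Smad3 and the feedback genes Smad7 and Skil. The genes were chosen by symbol out of 18193 genes on the array. The platform annotation ties 25 probe sets to 1 of these symbols alone, and the brightest of a gene's probe sets, by its average over all 16 arrays, stood for the gene. All 10 genes reached log2 5 on at least 2 arrays and so were among the 7823 genes tested. Ltbp1 reached that level on 6 arrays, of which 5 were from injured livers, so it entered the tests through the groups in which it was high. Smad3 reached it on 14 arrays and the other 8 genes on all 16.

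Stellate cells were taken from male Balb/c mice aged 8 to 10 weeks by density centrifugation, and cells carrying the macrophage surface protein encoded by Adgre1 were removed magnetically from every preparation. Quiescent cells (n = 5) came from untreated mice and were lysed after 24 h on a plate. Cultured cells (n = 3) were kept for 5 days on plastic in medium with 10% foetal bovine serum, a standard way to activate stellate cells outside the body. Cocultured cells (n = 2, labelled replicates 2 and 3) were kept in the same way but shared medium, without contact, with Kupffer cells, which are liver macrophages. The series' design gives 3 cocultures, and the other one was not analysed here. Cells of the bile duct ligation group (n = 3) came from mice whose bile duct had been tied for 15 days, which causes biliary injury. Cells of the carbon tetrachloride (CCl4) group (n = 3) came from mice that received 4 intraperitoneal injections of 0.5 µl of this liver toxin per g body weight. Both injury groups were lysed after 24 h on a plate, as the quiescent cells were. The labels do not say that replicates came from separate animals, so the p-values measure the spread between these preparations, which may be partly technical.

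TGF-beta is secreted as a latent complex in which the ligand is wrapped by its own propeptide and tethered to the matrix by a latent TGF-beta binding protein. Once released, the ligand brings the type II receptor (Tgfbr2) and the type I receptor (Tgfbr1) together, and the type I receptor phosphorylates Smad2 and Smad3, which enter the nucleus with Smad4. Betaglycan (Tgfbr3) is a co-receptor that presents the ligand, most of all TGF-beta 2. Smad7 and SnoN, the product of Skil, are induced by the signal and restrain it. In the liver the pathway is best known for driving stellate cells to become matrix-producing myofibroblasts.

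All values are log2 expression after GCRMA, an array normalisation, so a difference of 1 is a 2-fold change. The medians of the 16 arrays lay between 2.00 and 2.06, and correlations between arrays over all genes were 0.929 to 0.983 within groups and 0.773 to 0.969 between them. Of 12 stellate cell markers, 10 or 11 had a group mean of at least 5 in each group. The log2 of their summed level was 13.93 to 14.61 in quiescent cells, 14.53 to 15.14 in culture, 13.37 to 14.07 in coculture, 13.44 to 13.76 after ligation and 12.94 to 13.52 after CCl4. Against quiescent cells, Gdf2, Reln and Ecm1 fell after both injuries and Pdgfrb, Dcn and Cygb after CCl4, and their part in the injury results was not tested. The summed level of the hepatocyte markers moved with injury: its log2 (8 genes) was 4.53 to 5.41 in quiescent cells, 4.55 to 5.15 in culture, 4.65 to 4.80 in coculture, 7.70 to 9.18 after ligation and 8.61 to 11.34 after CCl4. Of the 8, 1 had a group mean of at least 5 after ligation and 4 after CCl4. After ligation Apoa1, Ttr, Ahsg and Fgb averaged 3.18, 4.39, 3.03 and 3.24, above quiescent cells. Tat, Cps1 and Apob stayed at 1.44, 0.87 and 1.60, beside 1.28, 0.83 and 1.58 in quiescent cells. Albumin (Alb) averaged 2.75 in quiescent cells, 8.25 after ligation and 9.33 after CCl4, and its part in the injury results was not tested. The summed macrophage markers (15 genes) ran from 6.83 to 8.08 in quiescent cells, 6.41 to 6.62 in culture, 8.34 to 8.39 in coculture, 7.03 to 8.83 after ligation and 7.50 to 8.56 after CCl4. The Kupffer cell markers Adgre1, whose product was used to deplete macrophages, and Clec4f stayed near the bottom of the scale, with group means of 1.54 to 2.23 and 1.59 to 2.18, while Cd68 averaged 7.02 in quiescent cells, 3.74 in culture and 7.82 in coculture. Lyz2 averaged 2.02 in quiescent cells and was higher in each other group, at 4.94 in culture, 5.49 in coculture, 5.91 after ligation and 5.46 after CCl4. The cholangiocyte keratin Krt19 averaged 5.60 in coculture and 1.58 to 2.39 in the other groups. The other measured cholangiocyte markers, Krt7, Epcam, Sox9 and Cldn7, did not share this rise. They averaged 1.47, 2.54, 2.68 and 1.69 in coculture and 1.49, 2.23, 2.61 and 1.88 in culture. The endothelial, lymphocyte and combined mesothelial and portal fibroblast lists had no marker with a group mean of 5 in any group. The last of these (8 genes) had a log2 summed level of 4.77 to 5.19 in quiescent cells, 5.51 to 6.11 in culture, 4.90 to 5.37 in coculture, 5.62 to 6.46 after ligation and 6.07 to 7.46 after CCl4. Its members Thy1 and Wt1 averaged 1.17 and 2.14 in quiescent cells, 3.52 and 4.39 after ligation and 4.54 and 4.67 after CCl4, and their part in the injury results was not tested.

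Across the 5 groups, 9 of the 10 genes differed (limma F test, adjusted p under 0.05), against 63% of all genes tested. Skil was the exception (adjusted p = 0.22). The group means of Ltbp1 spanned 3.69 log2 units, those of Tgfb3 2.87 and those of Tgfb2 2.57, and the other 7 genes spanned 0.67 to 1.74. Compared with quiescent cells, 5 of the 10 genes passed the threshold in culture (1 higher, 4 lower), where 42.1% of all genes did. In coculture 2 passed, both lower, against 38.7% of all genes. After bile duct ligation 4 passed (2 higher, 2 lower), against 16.9%, and after CCl4 6 passed (3 higher, 3 lower), against 22%. These 4 comparisons share the same 5 quiescent arrays. The arrays of the compared groups did not overlap for 6 of the 10 genes in culture, 2 in coculture, 4 after ligation and 6 after CCl4, against 39.1%, 46.4%, 22.6% and 25.5% of all genes. The median difference of the 10 genes was -0.41 in culture, -0.21 in coculture, -0.04 after ligation and -0.39 after CCl4, beside medians over all genes of -0.05, -0.04, -0.05 and -0.05.

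**Figure D1:**
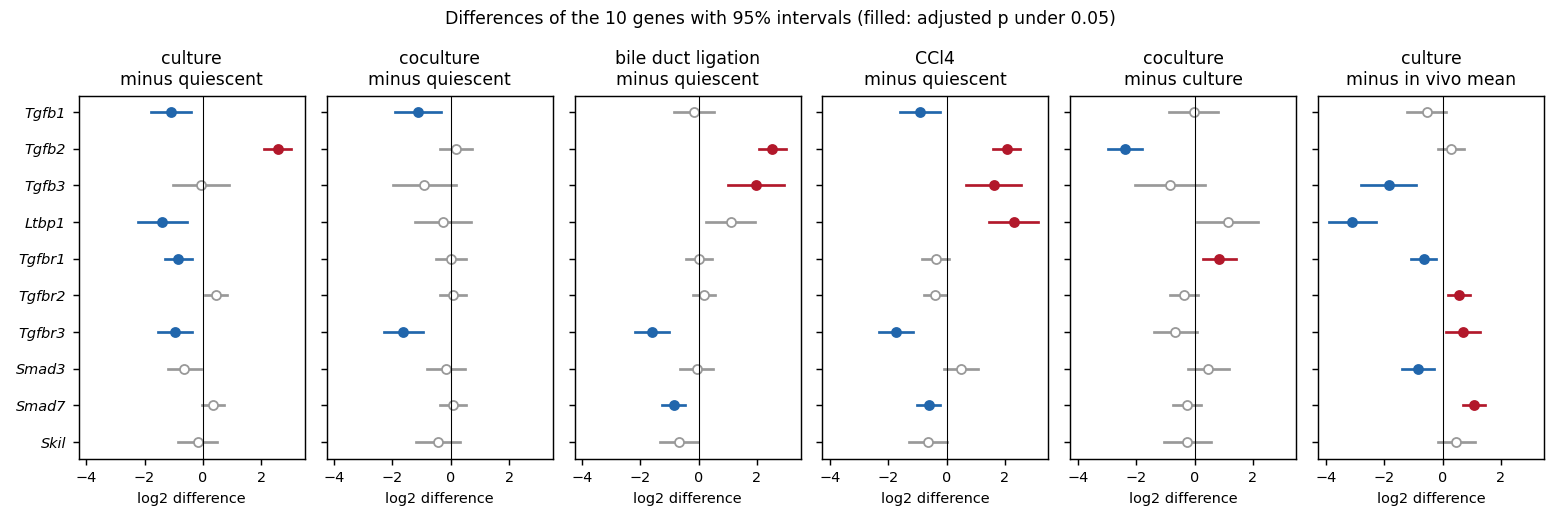
Log2 difference (horizontal axis) of each of the 10 genes in 6 comparisons, with 95% confidence intervals from the limma fit; filled points passed an adjusted p of 0.05 (red higher, blue lower) and open points did not. Tgfb2 stands to the right of 0 in culture, after ligation and after CCl4 (2.57, 2.52 and 2.06) and near 0 in coculture (0.18), while Tgfbr3 stands to the left in all 4 comparisons with quiescent cells.

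Tgfb2 showed the lowest p-value of the 10 genes in culture and after both injuries. This ligand, read with probe set 1450922_a_at, was at 5.82, 6.52, 5.94, 5.84 and 6.44 in the quiescent preparations and at 9.02, 8.62 and 8.41 in culture. It was at 8.88, 8.67 and 8.35 after bile duct ligation and at 7.85, 8.58 and 8.10 after CCl4. The 9 arrays from cultured and injured cells all lay above the 5 quiescent arrays without overlap. In coculture it was at 6.41 and 6.17, inside the quiescent range. Tgfb2 rose by 2.57 ± 0.22 (SE) in culture, a 5.94-fold increase (limma, adjusted p = 7.70e-07). It rose by 2.52 ± 0.22 after ligation (adjusted p = 1.89e-06) and by 2.06 ± 0.22 after CCl4 (adjusted p = 1.47e-05). Coculture differed from quiescent cells by 0.18, with a 95% interval of -0.36 to 0.71 (adjusted p = 0.61).

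The direct comparison of coculture with culture therefore gave a difference in Tgfb2 of -2.39 ± 0.27 (adjusted p = 6.22e-05), that is 5.26-fold less Tgfb2 when Kupffer cells shared the medium. The 2 cocultured and the 3 cultured arrays did not overlap. Tgfb2 has 4 probe sets, and the coculture minus culture difference was -2.26 to -2.57 in all 4 of them. All 4 also rose in culture and after both injuries. The calls of Tgfb2 were kept whichever single array was left out. Stellate cell markers were also lower in coculture than in culture: Colec11 (-4.25), Gdf2 (-3.20), Reln (-2.47), Lum (-2.20), Ecm1 (-1.15) and Pdgfrb (-0.76) passed the test. The summed macrophage marker level and Cd68 were higher in coculture than in culture. Of the 15 macrophage markers, 2 had a group mean of at least 5 in coculture and 0 in culture. The 2 were Cd68 and Lyz2. Lyz2 averaged 4.94 in culture, just under that level, and 5.49 in coculture, a difference of 0.54 that did not pass (limma, adjusted p = 0.70). Adgre1 averaged 1.54 in culture and 1.55 in coculture, and Clec4f 1.70 and 1.67. The part of the stellate or macrophage markers in the Tgfb2 difference was not tested. In these bulk samples fewer cells of a type and less RNA per cell cannot be told apart.

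Tgfb3 rose after both injuries and did not pass the test in culture, where the preparations disagreed. It was at 7.86, 9.03, 8.22, 8.78 and 8.10 in quiescent cells, at 10.89, 10.01 and 10.20 after bile duct ligation and at 9.55, 10.44 and 10.02 after CCl4. All 6 injury arrays were above all 5 quiescent arrays. The cultured preparations were spread widely, at 9.71, 8.14 and 7.14, and the cocultured ones were at 7.98 and 7.01. Tgfb3 rose by 1.97 ± 0.45 after ligation (adjusted p = 0.0070) and by 1.61 ± 0.45 after CCl4 (adjusted p = 0.019). The ligation call was lost without ligation replicate 1 (1.71, adjusted p = 0.051), and the CCl4 call without CCl4 replicate 2 (1.39, adjusted p = 0.085) or replicate 3 (1.60, adjusted p = 0.056). Culture differed from quiescent cells by -0.07 (95% interval -1.03 to 0.89, adjusted p = 0.92) and coculture by -0.90 (95% interval -2.0 to 0.19, adjusted p = 0.18). Set against the mean of the 2 injury groups, cultured cells held 3.62-fold less Tgfb3 (-1.86 ± 0.44, adjusted p = 0.0025). The arrays overlapped there, as culture replicate 1 (9.71) lay above CCl4 replicate 1 (9.55).

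Tgfb1, the isoform most often named in liver fibrosis, had no group mean above that of quiescent cells. Its levels were 8.65, 8.50, 7.68, 9.51 and 8.42 in quiescent cells, 7.62, 6.96 and 7.79 in culture and 7.20 and 7.65 in coculture. After ligation it was at 8.38, 8.73 and 8.05, inside the quiescent range, and after CCl4 at 7.22, 7.81 and 7.86, of which 1 lay below that range. Quiescent replicate 3 reached down into the cultured and CCl4 values, and only the 2 cocultured arrays lay wholly below the quiescent ones. Tgfb1 fell by 1.09 ± 0.32 in culture (adjusted p = 0.012), by 1.13 ± 0.37 in coculture (adjusted p = 0.024) and by 0.92 ± 0.32 after CCl4 (adjusted p = 0.0497), and differed by -0.16 ± 0.32 after ligation (adjusted p = 0.78).

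The calls of Tgfb1 were not stable when single arrays were left out. The CCl4 call, whose adjusted p lay just under 0.05, was lost when any of 13 arrays was left out. The differences were then -0.68 (without quiescent replicate 4) to -1.04 (without CCl4 replicate 3). Some of the 13 were from groups outside the comparison, and without those the difference stayed at -0.92. The culture call was lost without culture replicate 2 (-0.85, adjusted p = 0.079), and the coculture call without replicate 2 (-0.90, adjusted p = 0.19) or replicate 3 (-1.35, adjusted p = 0.056).

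**Figure D2:**
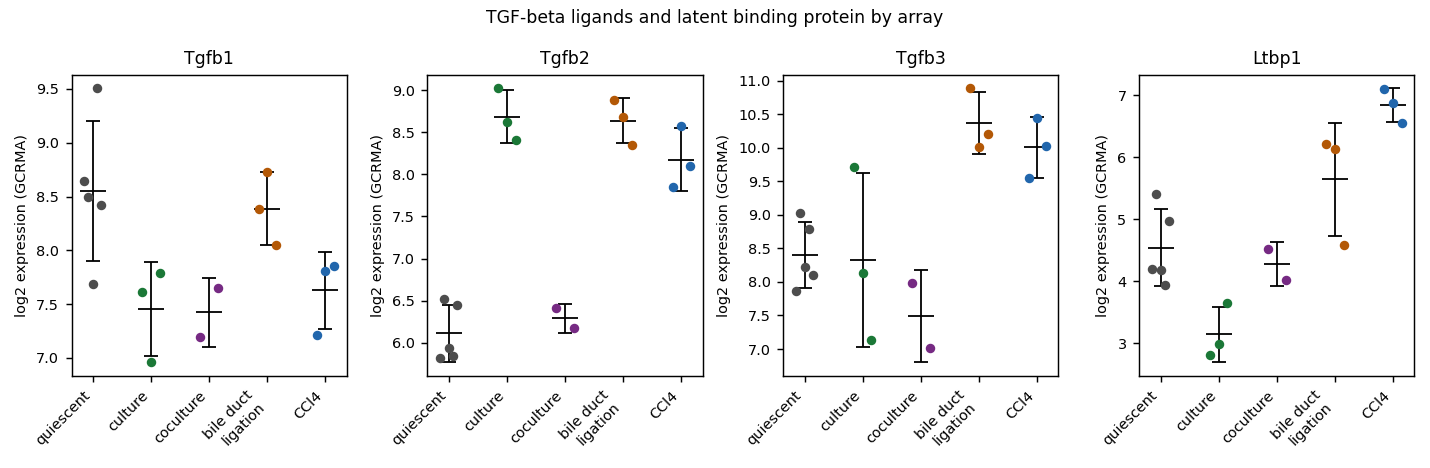
Log2 expression (vertical axis) of Tgfb1, Tgfb2, Tgfb3 and Ltbp1 on each of the 16 arrays by group; each point is 1 array, the long bar is the group mean and the error bar the SD. Cultured and cocultured cells separate for Tgfb2 (8.41 to 9.02 against 6.17 and 6.41), and the injury groups separate from quiescent cells for Tgfb2 and Tgfb3.

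The latent TGF-beta binding protein Ltbp1, which anchors the latent ligand in the matrix, moved in opposite directions in culture and after CCl4. It was at 4.21, 5.41, 4.18, 3.94 and 4.97 in quiescent cells, at 2.81, 2.98 and 3.65 in culture and at 7.10, 6.87 and 6.55 after CCl4. Neither the cultured nor the CCl4 arrays overlapped the quiescent ones. Ligation gave 6.21, 6.13 and 4.59, with replicate 3 inside the quiescent range, and coculture gave 4.53 and 4.03. Ltbp1 fell by 1.39 ± 0.40 in culture (adjusted p = 0.011) and rose by 2.29 ± 0.40 after CCl4 (4.91-fold, adjusted p = 0.00089). The ligation difference of 1.10 ± 0.40 did not pass (adjusted p = 0.071), but did without ligation replicate 3 (1.63, adjusted p = 0.0097) or quiescent replicate 2 (1.32, adjusted p = 0.031). Cultured cells were 8.52-fold below the mean of the injury groups (-3.09 ± 0.38, adjusted p = 1.42e-05). The cultured values are close to the low end of the array scale, where GCRMA pulls values together. All these values are from probe set 1448870_at. The 2 other probe sets, which read near the bottom of the scale, showed no such changes. They differed by 0.23 and 0.24 after CCl4 (limma, adjusted p = 0.62 and 0.69) and by 0.07 and -0.19 in culture (0.88 and 0.71). Culture minus the injury mean was -0.06 and -0.42 (adjusted p = 0.89 and 0.34).

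The proximal promoters of the ligand and binding protein genes that moved apart are printed here to show how different these sequences are. RefSeq windows (build GRCm38.p6, C57BL/6J reference rather than Balb/c) were found for 6 of the 10 genes, and the 250 bases before the annotated start of Tgfb1 (chr7:25686752-25687001, plus strand), Tgfb2 (chr1:186705990-186706239, minus strand) and Ltbp1 (chr17:75005279-75005528, plus strand, the first of its 2 windows) follow 5′ to 3′ in transcript direction. Capitals mark matches on either strand to the motifs searched: the TATA box TATAAA, the GC box GGGCGG, the cAMP response element TGACGTCA, the E-box CACGTG, the SMAD element CAGACA and the AP-1 site TGANTCA.
Tgfb1: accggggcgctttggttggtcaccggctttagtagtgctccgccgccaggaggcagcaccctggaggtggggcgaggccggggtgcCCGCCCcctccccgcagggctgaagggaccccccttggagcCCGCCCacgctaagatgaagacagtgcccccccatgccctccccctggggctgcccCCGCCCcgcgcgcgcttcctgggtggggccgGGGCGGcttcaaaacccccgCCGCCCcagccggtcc
Tgfb2: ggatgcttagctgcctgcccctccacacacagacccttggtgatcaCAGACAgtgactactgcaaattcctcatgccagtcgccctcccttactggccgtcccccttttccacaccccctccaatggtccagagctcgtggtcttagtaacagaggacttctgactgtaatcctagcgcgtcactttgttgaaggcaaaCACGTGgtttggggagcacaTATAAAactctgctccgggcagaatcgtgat
Ltbp1: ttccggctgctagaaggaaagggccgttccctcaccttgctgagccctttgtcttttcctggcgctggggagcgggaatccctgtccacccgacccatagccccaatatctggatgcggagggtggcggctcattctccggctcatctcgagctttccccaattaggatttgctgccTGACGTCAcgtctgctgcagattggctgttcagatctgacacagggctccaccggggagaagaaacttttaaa
The Tgfb1 window is 75.2% G and C and holds 5 GC boxes, a motif found in 32.7% of all 32851 windows of this length, and no TATAAA. The Tgfb2 window is 53.6% G and C and holds TATAAA 31 bases, CACGTG 51 bases and CAGACA 204 bases before the start, motifs present in 12.4%, 6.02% and 17.1% of all windows. The Ltbp1 window (56.8% G and C) holds TGACGTCA 73 bases before the start, which 1.55% of all windows do. TGANTCA, present in 6.75% of all windows, has no match in these 3. The second Ltbp1 window, which is not printed, holds CAGACA 149 and 98 bases before its own start and no TGACGTCA. A match describes the letters and does not show that a factor binds there.

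The receptors changed less than the ligands, except for the co-receptor. Betaglycan (Tgfbr3), measured by probe set 1433795_at, was lower than in quiescent cells in every other group, but its second probe set passed the test after ligation only. It was at 10.74, 11.02, 10.34, 10.11 and 10.85 in quiescent cells, at 9.30, 9.64 and 10.00 in culture and at 8.62 and 9.35 in coculture. After ligation it was at 8.62, 9.03 and 9.40 and after CCl4 at 8.27, 8.99 and 9.37. None of these 11 arrays reached the lowest quiescent value. Tgfbr3 fell by 0.97 ± 0.28 in culture (adjusted p = 0.011), by 1.63 ± 0.32 in coculture (adjusted p = 0.0011), by 1.60 ± 0.28 after ligation (adjusted p = 0.00091) and by 1.74 ± 0.28 after CCl4 (3.33-fold, adjusted p = 0.00045). The second probe set, 1425620_at, differed from quiescent cells by -0.33 in culture (adjusted p = 0.55), -0.84 in coculture (0.17), -1.47 after ligation (0.022) and -1.10 after CCl4 (0.068). With both probe sets averaged the culture difference was -0.65 (adjusted p = 0.11). For 1433795_at the culture call was lost without culture replicate 1 (-0.79, adjusted p = 0.059), and the other 3 were kept whichever array was left out. Cultured cells held 0.70 ± 0.27 more Tgfbr3 than the mean of the injury groups (adjusted p = 0.039), a call lost when any of 5 arrays was left out (0.52 without culture replicate 3 to 0.70 without culture replicate 2 or ligation replicate 2).

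The type I receptor Tgfbr1 was lower in culture only in the probe set used, 1420895_at. There it was at 8.65, 8.96, 7.97, 8.79 and 8.67 in quiescent cells, at 7.89, 7.66 and 7.75 in culture and at 8.37 and 8.87 in coculture. Ligation gave 8.39, 8.95 and 8.48, and CCl4 gave 7.92, 8.25 and 8.52. The 3 cultured arrays lay below all quiescent and cocultured arrays. Tgfbr1 fell by 0.84 ± 0.21 in culture (adjusted p = 0.0055) and was 0.85 ± 0.27 higher in coculture than in culture (adjusted p = 0.042). That second call was lost when any of 9 single arrays was left out (0.60 without coculture replicate 3 to 1.10 without coculture replicate 2). Its differences from quiescent cells were 0.01 in coculture (adjusted p = 0.98), 0.00 after ligation (adjusted p = 0.997) and -0.38 after CCl4 (adjusted p = 0.22); the last passed without quiescent replicate 3 (-0.54, adjusted p = 0.049).

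Both other probe sets of Tgfbr1, which read at low levels, gave another picture. They showed no fall in culture (0.17, adjusted p = 0.66, and 0.35, adjusted p = 0.49). In coculture they were higher than in quiescent cells by 1.44 ± 0.32 (1420894_at, adjusted p = 0.0026) and 1.93 ± 0.44 (1420893_a_at, adjusted p = 0.0031). Against culture they were higher by 1.27 and 1.59 (adjusted p = 0.022 and 0.036). The coculture minus culture difference was thus positive in all 3 probe sets, and the fall in culture was seen in 1 of them.

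The type II receptor Tgfbr2, which binds the ligand first, varied little in the probe set used (1426397_at). Quiescent cells gave 9.69, 9.69, 9.32, 9.22 and 9.53, culture 9.93, 9.84 and 10.03, and coculture 9.30 and 9.83. Ligation gave 9.21, 9.83 and 9.97 and CCl4 8.84, 9.12 and 9.28. The cultured arrays were above all quiescent arrays, but by a difference of 0.44 ± 0.18 that did not pass (adjusted p = 0.061; 0.032 without ligation replicate 1). Cultured cells were above the mean of the injury groups by 0.56 ± 0.18 (adjusted p = 0.015; 0.51, adjusted p = 0.062, without culture replicate 3). A second, dimmer probe set (1425444_a_at) gave a larger difference in culture, 1.21 ± 0.32 (adjusted p = 0.0070), and one of 1.44 ± 0.37 in coculture (adjusted p = 0.0064).

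**Figure D3:**
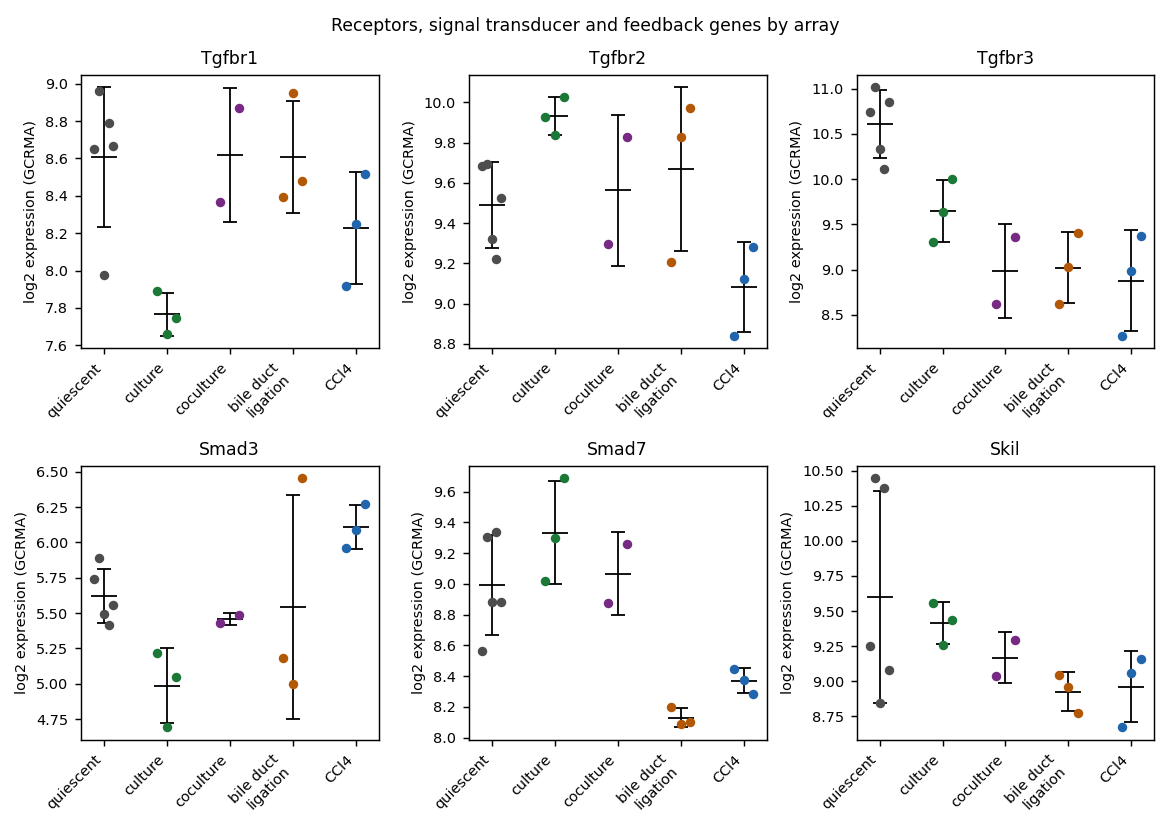
Log2 expression (vertical axis) of Tgfbr1, Tgfbr2, Tgfbr3, Smad3, Smad7 and Skil on each array by group; points are arrays, long bars group means and error bars SDs. Every Tgfbr3 value outside the quiescent group is below the lowest quiescent value of 10.11, and the Smad7 values after injury (8.09 to 8.45) are below all others.

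Smad3, which carries the signal into the nucleus, was low on these arrays. It was at 5.74, 5.89, 5.49, 5.42 and 5.56 in quiescent cells, 5.22, 4.69 and 5.05 in culture and 5.43 and 5.49 in coculture. After CCl4 it was at 5.96, 6.09 and 6.27, and after ligation at 5.18, 5.00 and 6.45. The CCl4 arrays lay above and the cultured arrays below all quiescent arrays, while ligation replicate 3 stood apart from the other two ligation preparations. No comparison with quiescent cells passed: culture differed by -0.63 ± 0.27 (adjusted p = 0.070; 0.011 without ligation replicate 3) and CCl4 by 0.49 ± 0.27 (adjusted p = 0.22). Cultured cells were below the mean of the injury groups by 0.84 on the log2 scale (-0.84 ± 0.26, adjusted p = 0.014), a call lost without culture replicate 2 (-0.69, adjusted p = 0.079).

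Smad7, the inhibitory SMAD that closes the feedback loop at the receptor, fell after both injuries. The probe set used, 1443771_x_at, gave 8.56, 9.30, 8.88, 9.34 and 8.88 in quiescent cells, 8.20, 8.09 and 8.10 after ligation and 8.45, 8.38 and 8.29 after CCl4. All 6 injury arrays were below all 5 quiescent arrays. Culture gave 9.02, 9.30 and 9.69 and coculture 8.88 and 9.26. Smad7 fell by 0.86 ± 0.18 after ligation (adjusted p = 0.0041) and by 0.62 ± 0.18 after CCl4 (adjusted p = 0.024). The CCl4 call did not hold when quiescent replicate 2 was left out (-0.55, adjusted p = 0.051) or any CCl4 array (-0.58 to -0.66, adjusted p = 0.063 to 0.080). Culture was 0.34 ± 0.18 above quiescent cells (adjusted p = 0.14) and 1.08 ± 0.18 above the mean of the injury groups (adjusted p = 0.00015).

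The second Smad7 probe set, 1423389_at, agreed after injury and not in culture. It differed from quiescent cells by -1.37 ± 0.41 after CCl4 (adjusted p = 0.028) and by -0.96 after ligation (adjusted p = 0.13), but also by -0.70 in culture (adjusted p = 0.19) and -1.16 in coculture (adjusted p = 0.064). The suffix x_at marks a probe set whose probes can also bind other transcripts, so the Smad7 level in culture is uncertain. By 1423389_at the difference between culture and the mean of the injury groups was 0.46 (adjusted p = 0.35), so that call rests on 1 probe set.

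Skil, whose product SnoN represses SMAD target genes, passed in no comparison. Quiescent cells split into 10.45 and 10.37 (replicates 2 and 4) and 9.25, 8.84 and 9.08. Culture gave 9.56, 9.26 and 9.43, coculture 9.04 and 9.30, ligation 9.05, 8.96 and 8.77 and CCl4 8.67, 9.06 and 9.16. The differences from quiescent cells ran from -0.67 ± 0.31 after ligation (adjusted p = 0.15) to -0.18 ± 0.31 in culture (adjusted p = 0.66). The spread among quiescent preparations, an SD of 0.75, is larger than each of these differences.

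**Figure D4:**
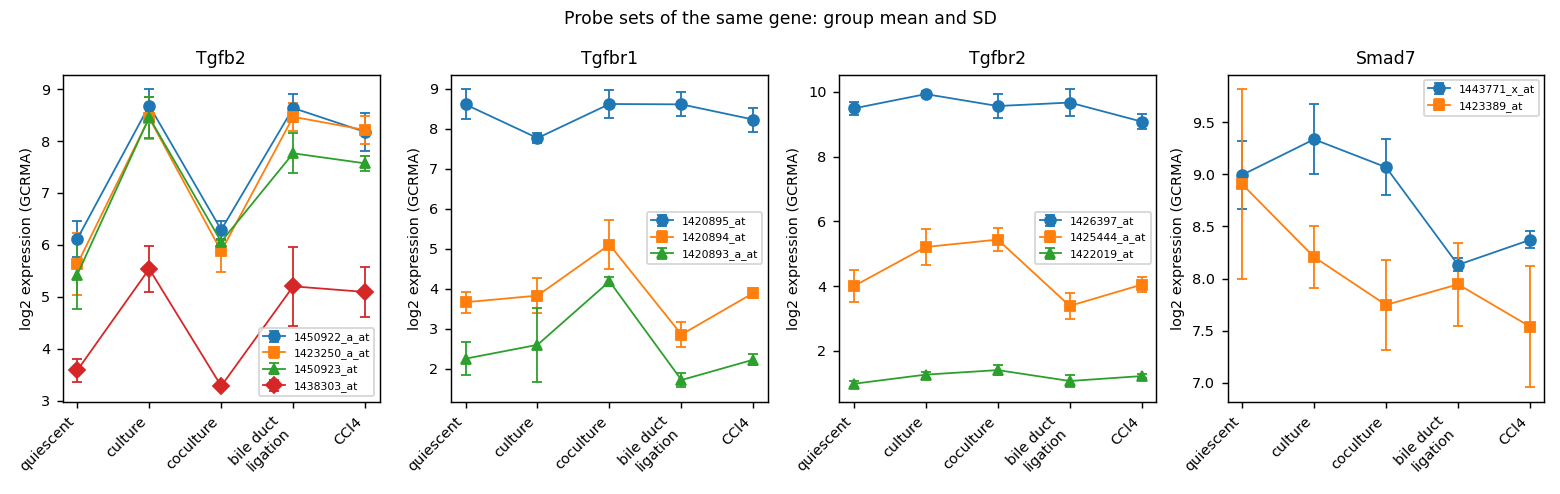
Group mean of log2 expression (vertical axis) with SD for every probe set of Tgfb2, Tgfbr1, Tgfbr2 and Smad7; each marker and colour is 1 probe set and lines join the means of 1 probe set. The 4 probe sets of Tgfb2 keep the same shape, while those of Tgfbr1 and Smad7 part in culture (Tgfbr1 -0.84 against 0.17 and 0.35, Smad7 0.34 against -0.70).

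Between the injuries, no difference passed in any of the 10 genes (limma, adjusted p 0.23 or more), and 0.166% of all genes, 13 in number, passed there. With 3 arrays in each injury group, this does not show that the injuries were alike. By direction, 0.0256% of all genes were higher after ligation than after CCl4 and 0.141% lower. The arrays of the injuries did not overlap for 3 of the 10 genes, against 25.3% of all genes. At an unadjusted p under 0.05 the count was 3 of the 10 genes and 14% of all genes. The 3 were Tgfbr2 (0.59 ± 0.20), Ltbp1 (-1.19 ± 0.44) and Tgfb1 (0.76 ± 0.36), given as ligation minus CCl4. In coculture minus culture 2 of 10 passed, Tgfb2 and Tgfbr1, against 15.4% of all genes, and the arrays did not overlap for 5, against 46.2%. In culture minus the mean of the injury groups 7 of 10 passed (Tgfbr2, Tgfbr3 and Smad7 higher, Tgfb3, Ltbp1, Tgfbr1 and Smad3 lower), against 50.9% of all genes (25% higher, 25.9% lower). The arrays did not overlap for 4 of the 10, against 44.6%.

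Genes linked to the latency or release of TGF-beta, by family or by function, were followed in a list of 17, of which 11 were tested. Ltbp2, a relative of Ltbp1, was higher after ligation by 2.46 ± 0.50 and after CCl4 by 3.68 ± 0.50 (adjusted p = 0.0030 and 0.00012). It averaged 1.75 in quiescent cells and in culture, 4.22 after ligation and 5.43 after CCl4. Like Ltbp1, it entered the tests through the injury groups, in which it was high. Ltbp3, which assists secretion of the latent complex, rose in culture (1.27), after ligation (1.37) and after CCl4 (1.37). Ltbp4, another member of the family, fell in culture by 2.70, in coculture by 3.95 and after CCl4 by 1.25 (adjusted p = 0.030). The CCl4 call was lost without quiescent replicate 1 or 5 or CCl4 replicate 1 or 3 (-0.78 to -1.37). The integrin subunit Itgb5 rose in culture (2.24 ± 0.27), in coculture (1.60 ± 0.31) and after ligation (1.51 ± 0.27). Thrombospondin 1 (Thbs1), an activator of the latent ligand, rose after CCl4 by 2.44 ± 0.78 (adjusted p = 0.035), and this call was lost without any 1 of 6 arrays, quiescent replicates 1, 3 and 5 and each CCl4 array (2.01 to 2.47). The counts in this list were 3 higher and 1 lower in culture, 2 and 1 in coculture, and 3 and 1 after each injury. Of all genes tested, 18.5% were higher and 23.5% lower in culture, 17.8% and 20.9% in coculture, 8.03% and 8.83% after ligation, and 9.51% and 12.5% after CCl4. Ltbp3 lost its call after ligation without ligation replicate 2 (1.17, adjusted p = 0.053) and after CCl4 without CCl4 replicate 1 (1.21, adjusted p = 0.051).

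Among 7 tested receptors and co-receptors of the wider family, Bambi, Eng and Acvr2a fell after both injuries. Bambi, a decoy receptor that blocks TGF-beta signalling, fell by 1.42 ± 0.35 after ligation and by 1.96 ± 0.35 after CCl4 (adjusted p = 0.011 and 0.0012). Endoglin (Eng), a co-receptor, fell by 0.90 ± 0.26 and 1.30 ± 0.26, and the activin receptor Acvr2a by 1.28 ± 0.23 and 1.22 ± 0.23. The activin type I receptor Acvr1b was higher after both (1.35 and 1.28). It averaged 3.81 in quiescent cells, below the filter level of log2 5, and 5.17 after ligation and 5.09 after CCl4, just above it. It may thus have entered the tests through the groups in which it was high. The list counted 1 higher and 3 lower after ligation and 1 higher and 4 lower after CCl4, and none in culture against quiescent cells, beside 8.83% and 12.5% of all genes lower after ligation and CCl4 and 42.1% changed either way in culture. In the ligation group the Bambi call was lost without replicate 3 (-1.24, adjusted p = 0.058), that of Acvr1b without replicate 2 (1.03, adjusted p = 0.11), and that of Eng without replicate 1 (-0.82), replicate 2 (-0.77) or quiescent replicate 5 (-0.83). After CCl4 that of Acvr1b was lost without any CCl4 array (1.16 to 1.38).

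Of 17 tested SMADs and intracellular modulators, 6 were lower and 1 higher in culture, 7 were lower and none higher in coculture, and 3 or fewer passed in any 1 direction after injury. Over all genes 23.5% were lower in culture and 20.9% in coculture. With single arrays left out, 0 to 2 of the list were higher and 0 to 4 lower after CCl4. The ubiquitin ligase Nedd4l, which marks activated SMADs and receptors for degradation, averaged 8.87 in quiescent cells, 6.19 in culture, 7.09 in coculture, 8.94 after ligation and 9.33 after CCl4. It fell by 2.68 ± 0.17 in culture (adjusted p = 3.96e-08) and by 1.78 ± 0.19 in coculture (adjusted p = 8.10e-06). The corepressor Ski fell by 0.96 ± 0.21 in culture and 1.52 ± 0.24 in coculture. The inhibitory Smad6 fell by 1.42 ± 0.44 after ligation and by 1.56 ± 0.44 after CCl4 (adjusted p = 0.036 and 0.019). The ligation call of Smad6 was lost when any of 7 arrays was left out (-1.29 to -1.53) and the CCl4 call without CCl4 replicate 1 (-1.27, adjusted p = 0.12). Pmepa1, a feedback inhibitor induced by TGF-beta, rose by 1.24 ± 0.33 after ligation, a call lost without ligation replicate 1 (1.19) or 2 (1.08).

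Of 23 tested genes that TGF-beta is known to induce in fibroblasts, 10 rose and none fell after ligation, and 9 rose and none fell after CCl4, where 8.03% and 9.51% of all genes were higher. In culture 8 rose and 6 fell, and in coculture 8 rose and 5 fell, where 18.5% and 17.8% of all genes were higher and 23.5% and 20.9% lower. The median of the list was 0.50 after ligation, 0.58 after CCl4, 0.04 in culture and 0.05 in coculture. The collagen cross-linking enzyme Lox rose in every group, from a quiescent mean of 4.37 ± 0.67 (SD, n = 5) to 10.03 in culture, 10.73 in coculture, 9.95 after ligation and 9.01 after CCl4 (adjusted p = 8.03e-09, 1.99e-08, 1.96e-08 and 6.65e-08). Its quiescent mean lay below the filter level of log2 5, which its means in the other groups exceeded. The type I collagen chain Col1a1 rose by 4.26 ± 0.38 after ligation and 2.90 ± 0.38 after CCl4 (adjusted p = 2.55e-06 and 8.36e-05), and its partner Col1a2 by 3.40 ± 0.25 and 2.75 ± 0.25. Outside the injuries, Col1a2 rose by 2.07 ± 0.29 in coculture (adjusted p = 7.63e-05). Col1a1 rose by 1.13 in culture, a call lost in several alternatives, such as without culture replicate 1 (1.06, adjusted p = 0.077). Ctgf, listed as Ccn2 and a standard TGF-beta target that was named here after its values were seen, averaged 12.67 to 13.25 in all 5 groups and passed in no comparison.

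The count of induced genes ranged from 7 to 12 higher after ligation and from 6 to 10 after CCl4 when single arrays were left out, and from 5 to 9 higher and 3 to 6 lower in culture. Leaving out culture replicate 3, CCl4 replicate 3 and quiescent replicate 4 at once, as an earlier analysis of these data had done, gave 4 higher and 2 lower in culture. After ligation 12 were then higher and 2 lower, and after CCl4 8 and 2, so lower genes appeared there. With single arrays left out, up to 1 gene was lower after ligation and up to 2 after CCl4. Hepatocyte, mesothelial and portal fibroblast marker levels were higher in both injury groups and stellate marker levels lower, and their part in these counts was not tested.

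**Figure D5:**
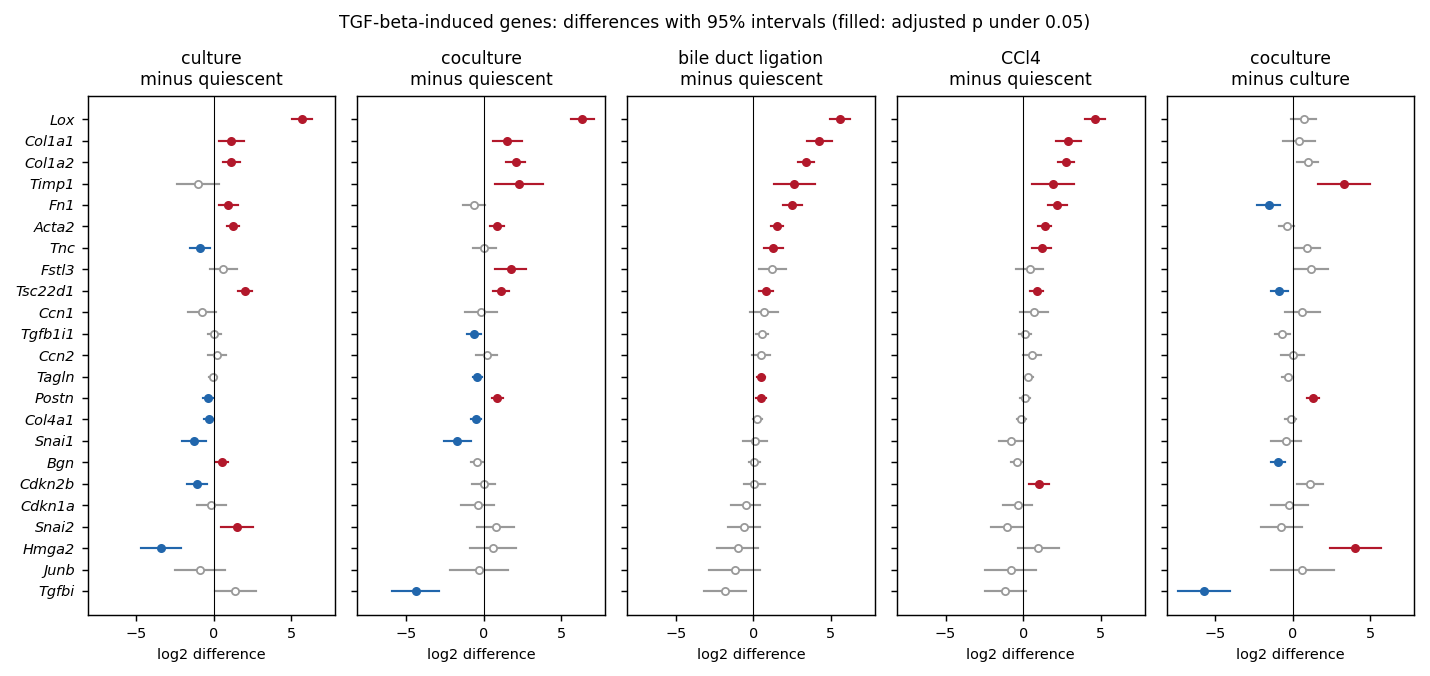
Log2 difference (horizontal axis) of 23 TGF-beta-induced genes in 5 comparisons, with 95% intervals from the limma fit; filled points passed an adjusted p of 0.05 (red higher, blue lower). No filled blue point appears after ligation or CCl4, while Tgfbi is the farthest to the left in both coculture panels (-4.38 against quiescent cells, -5.75 against culture).

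Against culture alone, coculture changed 3 of the 23 induced genes upward and 4 downward, beside 8.37% and 7.03% of all genes. Tgfbi, a secreted adhesion protein named for its induction by TGF-beta, averaged 10.84 in culture (9.86 to 11.60) and was at 3.11 and 7.05 in coculture, a difference of -5.75 ± 0.78 (adjusted p = 0.00022). The cocultured arrays lay far apart, and both were below all cultured arrays. Fn1, the matrix protein fibronectin, was lower by 1.56 ± 0.35, and the protease inhibitor Timp1 and the chromatin protein Hmga2 were higher by 3.31 ± 0.79 and 4.03 ± 0.77. Postn was also higher, by 1.27 ± 0.19 (limma, adjusted p = 0.00038). Of the 5 tested matrix proteins that bind TGF-beta, 3 were lower in coculture than in culture: Fmod by 3.09 ± 0.70, Lum by 2.20 ± 0.56 and Bgn by 0.95 ± 0.21. Fmod, fibromodulin, had risen over quiescent cells in culture (3.38 ± 0.56), after ligation (2.46 ± 0.56) and after CCl4 (4.43 ± 0.56), and coculture left it at 1.89 and 2.40. It averaged 1.85 in quiescent cells, so it entered the tests through the groups in which it was high. Without coculture replicate 2 the calls of Fmod (-2.84, adjusted p = 0.086), Lum (-1.04), Bgn (-0.49), Fn1 (-0.75), Timp1 (3.08, adjusted p = 0.10) and Hmga2 (3.20, adjusted p = 0.065) were all lost, and that of Tgfbi was kept. Activin A's subunit gene Inhba, from a list of 3 tested genes, fell by 2.57 ± 0.73 in culture (adjusted p = 0.011; -2.15, adjusted p = 0.060, without culture replicate 3).

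The genes whose pattern over the 16 arrays was most like those of the 3 most variable members are named as a description, with no test. For Ltbp1 these were Srp19 (Pearson r = 0.90), Rnps1 (r = 0.88) and Cck (r = 0.88). For Tgfb3 they were Ppp1r18 (r = 0.95), the smooth muscle actin-binding protein gene Tagln (r = 0.95) and Crim1 (r = 0.94). For Tgfb2 they were 2310022B05Rik (r = 0.91), Lbh (r = 0.90) and Lclat1 (r = 0.90). The points share their group structure, so these correlations describe mostly differences between groups.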

How the data were processed

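Hepatic stellate cell RNA was measured on 16 oligonucleotide arrays in 5 groups. The authors deposited log2 expression values per probe set, normalised with GCRMA per the submitters' processing notes; its version is not given in the sources used. Of 45101 probe sets, 64 were controls, 34945 had a single gene symbol in the platform annotation, 932 had several and 9160 had none. The brightest single-symbol probe set on average stood for each of 18193 genes. Genes at log2 5 on at least 2 arrays (7823) entered 1 limma fit (version 3.58.1, R 4.3.3) of the 5 group means with a trended variance prior, and 7 contrasts and an F test were read from it, two-sided. P-values were Benjamini-Hochberg adjusted over all 7823 genes, and a gene passed at an adjusted p under 0.05. In culture minus the mean of the injury groups, the injury groups had equal weight. The fit was tested on simulated data.

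Arrays give no read depth; the number of arrays limits the precision, most of all for the 2 cocultures. GCRMA pulls low values together, which understates differences of dim probe sets. The named genes are all 10 members, up to 3 genes with the largest increase and 3 with the largest decrease among those that passed, per pathway list and comparison, and the 3 genes most like each of the 3 members with the widest range of group means. The 10 members, the pathway lists and the marker lists were chosen with earlier results of these data known. Alternatives varied the filter, the probe set choice, centring, array weights, the replicate block, the arrays fitted and each array in turn; the settings for the pathway lists were added after seeing the data. Promoters came from RefSeq (GRCm38.p6) and were searched on both strands; all 25 member probe sets matched RefSeq genes. Genes of the pathway lists without a single-symbol probe set, such as Fbn1, were not analysed here.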

Additional observations from a re-analysis of the deposited data

Results flagged for a closer look

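A gene is listed here where the effects of 2 conditions differed by a test of the difference itself, in the limma fit. Between coculture and culture, both set against quiescent cells, Tgfb2 differed by -2.39 and Tgfbr1 by 0.85. The first is a rise in culture that coculture did not show, seen in all 4 probe sets. The second was lost when any of 9 arrays was left out.

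Between culture and the mean of the injury groups, 7 genes differed. Ltbp1 (-3.09), Tgfb3 (-1.86), Smad3 (-0.84) and Tgfbr1 (-0.65) were lower in culture, and Smad7 (1.08), Tgfbr3 (0.70) and Tgfbr2 (0.56) were higher. Of these, Tgfbr1 lost its call without culture replicate 2 (-0.60, adjusted p = 0.064), and the report gives the arrays on which the calls of Tgfbr2, Tgfbr3 and Smad3 rested. The Smad7 difference rests on a probe set whose probes can also bind other transcripts. By the second probe set it was 0.46 (adjusted p = 0.35). No quiescent array stood apart for any of the 10 genes by Dixon's criterion; the other groups are too small for it.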

How the results depend on the processing

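Of the 26 calls of the 10 genes, 13 were kept under every alternative in which the gene was tested, other than another probe set. They were all 4 of Tgfb2, the 3 of Ltbp1, Tgfbr3 in coculture and after both injuries, Smad7 after ligation and against the injury mean, and Tgfb3 against the injury mean. With another probe set, those of Tgfb2 and that of Tgfbr3 after ligation still passed. The 3 of Ltbp1 did not, nor did Tgfbr3 in coculture (limma, adjusted p = 0.17) and after CCl4 (0.068). Smad7 after ligation (0.13) and against the injury mean (0.35) did not pass either. Tgfb3 has 1 probe set, so its call could not be checked this way. Ltbp1 was tested in 22 of 24 alternatives, not at the log2 7 filter or with the mean of all probe sets. It had entered the tests through the groups in which it was high. In culture 5 genes passed, 3 with the mean of all probe sets (8 genes tested) and 8 with array weights. In coculture 2 passed, and 1 with array weights, with a fit on the groups compared only, and with the replicate block. Leaving out single arrays gave 1 to 2. With the mean of all probe sets Tgfbr1 (1.13, limma, adjusted p = 0.0013) and Tgfbr2 (0.645, adjusted p = 0.016) were higher in coculture than in quiescent cells. Tgfb1 then did not pass (-0.91, adjusted p = 0.059). In coculture minus culture 2 passed, and 1 without the filter, with the replicate block, with a fit on the groups compared only, and without 3 arrays at once (culture 3, CCl4 3 and quiescent 4); single arrays gave 1 to 2. After CCl4 6 passed, and 3 to 7 without single arrays. Against the injury mean 7 passed, 4 with the mean of probe sets, 4 without the 3 arrays together, and 4 to 7 without single arrays. The replicate numbers showed no general pairing of the arrays in correlations of deviations from the group means, taken between arrays of different groups. Same-numbered arrays had a median of -0.00646 (-0.26 to 0.54), with 7 of 26 pairs over 0.1. Different-numbered arrays had a median of 0.017 (-0.54 to 0.45), with 18 of 74 pairs over 0.1. Of the 16 arrays, 5 matched best with their own number.

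Directions reversed for Ltbp1 in culture with probe set 1419786_at (0.067), for Tgfbr1 in culture with 1420894_at (0.17) and 1420893_a_at (0.35), for Tgfbr1 against the injury mean with the mean of probe sets (0.14) and these 2 probe sets (0.45 and 0.63), and for Smad3 against the injury mean with 1450471_at (0.057); the cause was not tested, and the probe sets of Ltbp1 and Smad3 are near the bottom of the scale. Over all genes, the count in coculture was 3031, and 1965 or 1816 without coculture replicate 2 or 3. For coculture minus culture it was 1205, and 601 on the groups alone or 412 without coculture replicate 2. It was 1319 after ligation (769 without replicate 1) and 1719 after CCl4 (869 without replicate 1). For ligation minus CCl4 it was 13, and 3 to 20 without single arrays, 43 without the filter, 4 at log2 7, 20 with the mean of probe sets, 173 with array weights, 40 on the groups alone and 7 without the 3 arrays.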
